A study of Mus musculus with 6 samples.

Results

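Guanylate-binding proteins and other interferon-response genes were followed in TM4 cells, an immortalized mouse line of Sertoli origin (Sertoli cells nurse the germ cells within testis tubules). The 5 genes are Gbp2, Gbp2b, Xaf1, Ifi35 and Rsad2, out of 1994 genes that carry a name and passed the filter on dim probes. They were chosen because the authors' deposited table lists their probes as differing between the same 6 arrays, so every difference given for them below is a description of those arrays and not an independent test. The compared cells were 3 samples transfected with a pool of 4 siRNAs against Gata4, a transcription factor with zinc fingers that acts in heart and gonad development, and 3 samples transfected with 1 non-targeting (NT) siRNA. Both groups received siRNA at a final 0.1 µM with the same lipid reagent, so the NT cells also carry transfected RNA. One Illumina MouseWG-6 BeadChip array was read per sample. The labels do not say whether replicates were separate cultures, and the spread between arrays may be technical.

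Interferons signal through receptors on the cell surface to JAK kinases and STAT transcription factors. Type I interferons act mainly through a complex of STAT and IRF proteins that binds the interferon-stimulated response element (ISRE) of antiviral genes, whereas interferon gamma acts mainly through gamma-activated sites (GAS). Guanylate-binding proteins are large GTPases that attack the vacuoles of intracellular pathogens and are strongly induced by interferon gamma. Cells can also induce some of these genes without interferon, when cytoplasmic or endosomal sensors meet foreign RNA or DNA.

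The sequences of the siRNAs are shown because they are the agents in which the 2 groups differ. Each is 19 bases long and written 5′ to 3′ as the protocol gives it, and the protocol does not say which strand of the duplex is listed.
Gata4 siRNA 1: agagaauagcuucgaacca
Gata4 siRNA 2: ggauauggguguuccgggu
Gata4 siRNA 3: cugaauaaaucuaagacgc
Gata4 siRNA 4: ggacauaaucaccgcguaa
Non-targeting siRNA: ugguuuacaugucgacuaa

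The promoters of Gbp2, Gbp2b and Rsad2 are shown because they hold a match to the core of the ISRE, taken here as TTTC, any 2 bases and TTTC again, searched on both strands. The window runs from 250 bases before to 50 bases after the annotated start of the gene in RefSeq, build GRCm38.p6, and capitals mark the match. Gbp2 lies at chr3:142620413-142620712 on the plus strand, Gbp2b at chr3:142594597-142594896 on the plus strand and Rsad2 at chr12:26456403-26456702 on the minus strand.
Gbp2: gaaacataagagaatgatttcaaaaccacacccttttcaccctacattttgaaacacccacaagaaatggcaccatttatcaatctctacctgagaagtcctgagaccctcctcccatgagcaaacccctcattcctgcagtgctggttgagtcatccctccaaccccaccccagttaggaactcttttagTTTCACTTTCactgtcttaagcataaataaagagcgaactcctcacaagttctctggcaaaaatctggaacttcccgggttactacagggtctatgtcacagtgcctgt
Gbp2b: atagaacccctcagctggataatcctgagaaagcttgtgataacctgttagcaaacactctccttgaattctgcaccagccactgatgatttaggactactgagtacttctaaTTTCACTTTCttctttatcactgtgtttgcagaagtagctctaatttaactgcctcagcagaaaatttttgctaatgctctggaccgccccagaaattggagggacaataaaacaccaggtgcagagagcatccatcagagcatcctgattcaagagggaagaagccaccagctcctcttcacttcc
Rsad2: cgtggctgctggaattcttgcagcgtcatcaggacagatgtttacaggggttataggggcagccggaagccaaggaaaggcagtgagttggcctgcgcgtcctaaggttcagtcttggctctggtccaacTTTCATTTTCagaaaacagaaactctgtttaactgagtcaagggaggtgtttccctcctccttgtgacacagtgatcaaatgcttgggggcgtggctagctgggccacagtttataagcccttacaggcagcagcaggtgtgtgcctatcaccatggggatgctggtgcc

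The match begins 59 bases before the start in Gbp2, 137 bases before it in Gbp2b and 120 bases before it in Rsad2. Gbp2 and Gbp2b hold the same 10 letters, TTTCACTTTC, while Rsad2 holds TTTCATTTTC. The ISRE core was found in 3.44% of the 32851 mouse promoters of the same length. The promoters of Xaf1 and Ifi35 do not contain these letters in this window. A match to the GAS core, TTCNNNGAA, was found in the Ifi35 promoter alone among the 5 genes, as TTCACAGAA, against 8.30% of all promoters. The short GATA motif GATAA, read on both strands, was found 3 times in Gbp2b and 1 time in Gbp2, and 25.4% of all promoters hold it. No ISRE match in the 5 genes overlapped a GAS or GATA match. In the RefSeq gene order Gbp2b and Gbp2 are direct neighbours on chromosome 3, Xaf1 and Ifi35 lie on chromosome 11 and Rsad2 on chromosome 12.

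Of the 5 genes, 4 were higher and 1 was lower in Gata4 siRNA cells. The guanylate-binding protein genes Gbp2 and Gbp2b, Xaf1 and Ifi35 were the higher ones, and the antiviral enzyme gene Rsad2 was the lower one. All 5 are represented by 1 named probe each, and all 5 probes were above the filter. The probes of all 5 passed an adjusted p under 0.05 in limma's fit across 17740 probes. That threshold was passed by 8.78% of all probes and 55.4% of named genes in either direction. It was passed in the higher direction by 4.07% of all probes and by 25.8% of named genes, and in the lower direction by 4.71% of all probes and 29.5% of named genes. Nothing can be read from the 5 calls, because the genes were taken from the authors' calls on these arrays. The same holds for the absence of overlap between the groups, which was found for all 5 genes, for 33.2% of all probes and for 100% of named genes.

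Gbp2 encodes a guanylate-binding protein that acts against intracellular parasites in the mouse. Its intensity was 356.4, 351.9 and 306.7 on the Gata4 siRNA arrays, against 85.2, 86.3 and 80.3 on the NT siRNA arrays. The groups were far apart, with a gap of 220.4 intensity units between the lowest Gata4 siRNA array and the highest NT siRNA array. The spread within a group was 49.7 units in Gata4 siRNA cells and 6.0 units in NT siRNA cells. Gata4 siRNA cells averaged 338.3 ± 27.5 and NT siRNA cells 83.9 ± 3.19 (SD, n = 3 each). The log2 difference was 1.83 ± 0.12 (SE), a fold of 3.54 on the log2 scale used and a ratio of 4.03 between the mean intensities.

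Gbp2b, deposited under its older symbol Gbp1, encodes a second guanylate-binding protein from the same gene cluster. Its probe read 101.8, 110.2 and 105.6 in Gata4 siRNA cells, against 19.7, 21.7 and 15.4 in NT siRNA cells. The Gata4 siRNA arrays lay close together, within 8.4 units. In NT siRNA cells the signal lay at the edge of detection, and 2 of the 3 arrays were above the noise floor of 17.1 units. The log2 difference was 1.79 ± 0.12 (SE), a fold of 3.45 on the log2 scale used. The ratio of the mean intensities was 5.59, larger because the added offset compresses the change of a dim probe. The differences of Gbp2 and Gbp2b on the log2 scale were thus nearly equal, 1.83 and 1.79, but that agreement depends on the scale, since the ratios of mean intensities were 4.03 and 5.59. Whether either probe also takes up signal from the related gene was not tested.

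Xaf1 encodes a partner of the apoptosis inhibitor XIAP that promotes cell death and is induced by interferon. Its probe is deposited under a predicted locus, LOC380706, and was named through the Entrez number beside it, so a signal from a related locus was not tested. Its intensity was 163.6, 176.1 and 207.7 in Gata4 siRNA cells, against 89.2, 51.5 and 56.8 in NT siRNA cells. NT siRNA array 1 stood nearest the Gata4 siRNA arrays, 74.4 units below the lowest of them. The log2 difference was 1.30 ± 0.19 (SE), with means of 182.5 ± 22.7 in Gata4 siRNA cells and 65.8 ± 20.4 in NT siRNA cells (SD, n = 3 each).

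Ifi35 encodes an interferon-induced leucine zipper protein that pairs with NMI and modulates innate immune signalling. The probe gave 289.7, 288.6 and 334.0 in Gata4 siRNA cells, against 173.6, 172.0 and 156.1 in NT siRNA cells. This was the smallest difference of the 5, at 0.80 ± 0.12 on the log2 scale (SE) and a ratio of mean intensities of 1.82. Its gap of 115 units between the groups exceeded the range of 45.4 units within Gata4 siRNA cells and of 17.5 units within NT siRNA cells.

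Rsad2 encodes viperin, a radical SAM enzyme that makes a chain-terminating nucleotide and restricts many viruses. Its intensity was 23.8, 31.3 and 11.4 in Gata4 siRNA cells, against 91.0, 114.1 and 90.4 in NT siRNA cells. Gata4 siRNA array 3 lay below the noise floor, while the other 2 arrays of that group were just above it. The log2 difference was -1.58 ± 0.19 (SE), and the mean intensity in Gata4 siRNA cells was 0.225 of that in NT siRNA cells. Without Gata4 siRNA array 3 the log2 difference was -1.39 ± 0.16.

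**Figure D1:**
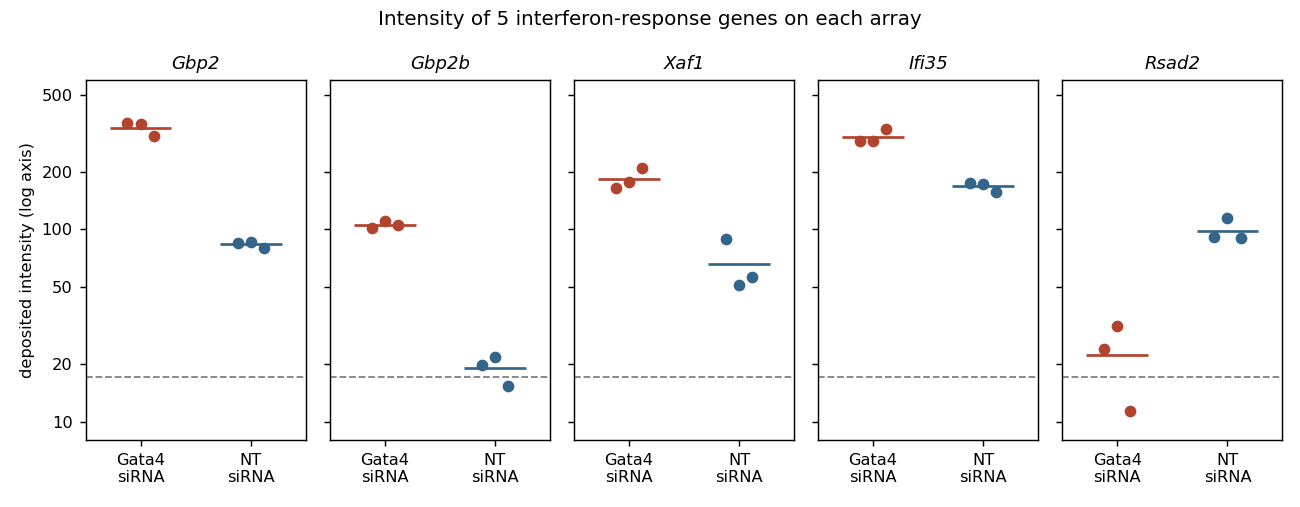
Deposited intensity (log axis) of Gbp2, Gbp2b, Xaf1, Ifi35 and Rsad2 on the 3 Gata4 siRNA arrays (left in each panel) and the 3 NT siRNA arrays (right). Points are arrays, solid lines are group means and the dashed line is the noise floor of 17.1 units. The first 4 genes sit higher in Gata4 siRNA cells and Rsad2 sits lower, with 1 NT siRNA array of Gbp2b and 1 Gata4 siRNA array of Rsad2 under the dashed line.

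On the plot of differences under each processing alternative the sign of all 5 genes stayed the same. Gbp2 ranged over 1.53 to 2.01 and Ifi35 over 0.70 to 0.86. The 2 genes with a group near the noise floor moved most, Gbp2b over 1.17 to 2.50 and Rsad2 over -2.26 to -1.03. In both the extremes came from the treatment of dim values and not from leaving out an array.

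**Figure D2:**
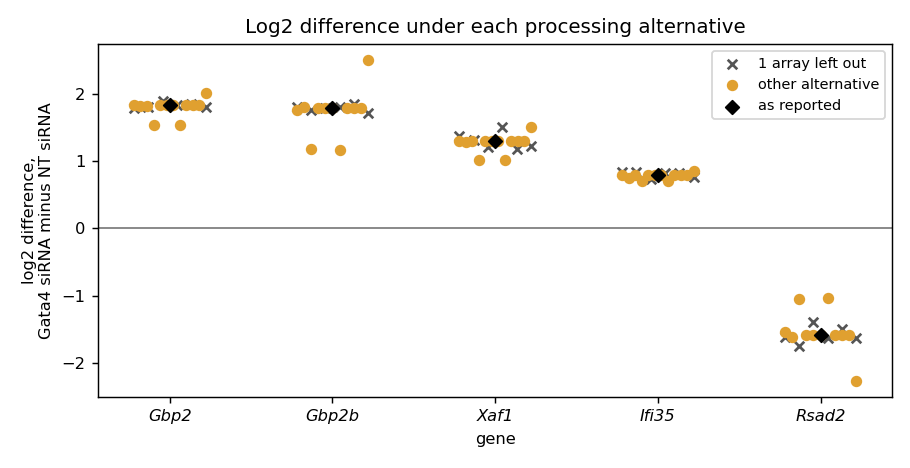
Log2 difference (Gata4 siRNA minus NT siRNA) of the 5 genes as reported (diamonds), with 1 array left out (crosses) and under the other processing alternatives (circles). Every point of Gbp2, Gbp2b, Xaf1 and Ifi35 lies above 0 and every point of Rsad2 below 0, with the widest spread for Gbp2b (1.17 to 2.50).

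The rest of the interferon system was read from 6 lists with 179 genes in all, of which 31 carried a name. Beside the 5 genes above, 26 others were named, of which 9 rose, 10 fell and 7 did not pass. Over all 31 the median log2 difference was 0.34, against 0.27 over the 1994 named genes and 0.01 over all probes tested. The 31 include the 5 chosen genes, and their middle value is that of Adar, whose probes disagreed in direction. Since a name comes only from the authors' calls, neither the median of these genes nor the share that passed can be set against all probes. Of named genes 55.4% passed in either direction. The number that passed also changed when 1 array was left out, as did the count over all probes. That count was 1558 with all arrays and 257 to 1602 with 1 array left out. With all arrays 13 of the 31 were higher and 11 lower, against 5 and 4 without Gata4 siRNA array 1 and 7 and 3 without Gata4 siRNA array 2. The counts were 7 and 3 without NT siRNA array 1, 10 and 4 without NT siRNA array 2, and 11 and 6 without Gata4 siRNA array 3. Without NT siRNA array 3, 10 were higher and 12 lower. Of the 19 called genes beside the chosen 5, Gvin1, Traf6 and H2-M3 kept their call under all 18 alternatives to the processing, and each of the others lost it under at least 1.

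Among the interferon-induced GTPases, 5 of the 21 listed genes were named, of which 4 were higher and 1 lower, with a median of 1.07. Of all named genes 25.8% passed as higher and 29.5% as lower. All 5 carry a name only through the authors' calls on these same arrays, and Gbp2 and Gbp2b are also among the chosen genes. The count and the median therefore restate that selection, and Igtp, Irgm2 and Gvin1 are no independent test. Gbp2 and Gbp2b were joined by 2 immunity-related GTPases, small relatives of the guanylate-binding proteins. Igtp rose by 1.07 ± 0.17, with 65.6, 55.9 and 85.0 units in Gata4 siRNA cells against 18.4, 22.2 and 31.6 in NT siRNA cells (limma adjusted p = 0.0118). Irgm2 rose by 1.05 ± 0.19, from a probe that exceeded the noise floor on 2 of 3 NT siRNA arrays (limma adjusted p = 0.0167). Across the alternatives the difference of Igtp ran over 0.67 to 1.53 and that of Irgm2 over 0.63 to 1.66, and both lost their call without Gata4 siRNA array 1. The promoters of Igtp and Irgm2 also hold the ISRE core, and both hold the GAS core, which those of Gbp2 and Gbp2b lack. Gvin1, a very large interferon-inducible GTPase, went the opposite way, at -1.09 ± 0.16, with 23.8, 41.1 and 24.2 units in Gata4 siRNA cells against 80.7, 73.1 and 85.9 in NT siRNA cells (-1.47 to -0.71 across the alternatives). The neighbour of Gbp2b on its other side, Gbp3, has no named probe.

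The antiviral effectors and other interferon-stimulated genes were divided. Of 13 named genes of 65 listed, 4 were higher and 6 lower, 3 did not pass, and their median lay at 0.34, the value of Adar. Named genes as a whole were divided too, with 25.8% passing as higher and 29.5% as lower, so the division is not particular to this list. Besides Xaf1 and Ifi35, Epsti1 rose by 1.29 ± 0.22 (limma adjusted p = 0.014), with 1 of 3 NT siRNA arrays above the noise floor. Its difference ran over 0.78 to 2.08 across the alternatives, and the call was lost under 4 of 17. The ubiquitin ligase and antibody receptor gene Trim21 rose by 0.68 ± 0.13. Besides Rsad2, 5 others were lower. Ifit3, whose protein belongs to a complex that recognises viral RNA, fell by 0.70 ± 0.12, with 42.3, 34.5 and 39.7 units in Gata4 siRNA cells against 76.4, 76.4 and 65.7 in NT siRNA cells. The chemokine gene Ccl5 was at -0.87 ± 0.18 and the exonuclease gene Isg20 at -0.61 ± 0.14. Oasl1, an oligoadenylate synthetase-like gene, was lower on both of its named probes, at -0.54 ± 0.14 and -0.97 ± 0.18. Ifi202b, a DNA-binding member of the interferon-activated p200 family, was at -0.55 ± 0.12. In limma's fit the adjusted p of these 5 lay between 0.0149 for Ifit3 and 0.0487 for the brightest probe of Oasl1. The call was lost under 10 of 18 alternatives for Oasl1, 8 for Isg20, 7 for Ifi202b, 5 for Ccl5 and 3 for Ifit3. Plscr1, Ifi27 and Adar did not pass on their brightest probes, at 0.51, 0.47 and 0.34. Adar, an RNA-editing deaminase, had probes that disagreed, since its dimmer probe was at -0.67 ± 0.13 (limma adjusted p = 0.0239).

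Upstream of these genes the changes also ran in both directions, as over all named genes, of which 25.8% passed as higher and 29.5% as lower. Ifngr2, the second chain of the interferon gamma receptor and the one named gene of 19 interferons and receptors, rose by 0.68 ± 0.16 (limma adjusted p = 0.0393), with the call lost under 8 of 18 alternatives. The list of JAK-STAT, IRF and feedback genes had 4 named genes of 27, of which 0 were higher, 2 were lower and 2 did not pass (median -0.52). Of the negative regulators of JAK-STAT signalling, Socs3 was at -0.57 ± 0.11 and the phosphatase gene Ptpn6 at -0.68 ± 0.14, both past the threshold. With 1 array left out the call was lost in 5 of 6 fits for Socs3 and in 4 of 6 for Ptpn6. The transcription factor gene Irf1 was at -0.48 ± 0.13 on its brighter probe, which did not pass (limma adjusted p = 0.0609), and at -0.60 ± 0.12 on its dimmer one, which did (limma adjusted p = 0.0256). Irf2bp1 was at 0.28 ± 0.11 and did not pass.

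Of 22 sensors and adaptors 4 were named. The adaptor of most Toll-like receptors, Myd88, rose by 0.64 ± 0.14, a call lost in each of the 6 fits without 1 array. The ubiquitin ligase Traf6, which acts below Myd88, was at -1.07 ± 0.14, with 85.2, 80.8 and 98.3 units in Gata4 siRNA cells against 236.6, 191.3 and 181.9 in NT siRNA cells (limma adjusted p = 0.00652). Prkra, which binds double-stranded RNA and activates the kinase PKR, was at -0.56 ± 0.12 with its call lost in 5 of those 6 fits, and Tlr4, the endotoxin receptor, at -0.43 ± 0.12 did not pass.

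Antigen processing and presentation had 4 named genes of 25, of which 3 rose while 1 did not pass (median 0.72). Of all named genes 25.8% passed as higher, and 4 genes are too few to set against that share. H2-M3, a class Ib histocompatibility gene that presents formylated peptides, rose by 1.04 ± 0.12, with a mean of 2280 ± 127 units in Gata4 siRNA cells against 1100 ± 82.3 in NT siRNA cells (SD, n = 3 each). The peptide transporter chain Tap2 rose by 0.78 ± 0.13. The immunoproteasome subunit Psmb8 was at 0.65 ± 0.17, just past the threshold (limma adjusted p = 0.0491), and lost its call under 12 of 18 alternatives, including each of the 6 that leave out 1 array. H2-T23, another class Ib gene, was at -0.29 ± 0.11 and did not pass.

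**Figure D3:**
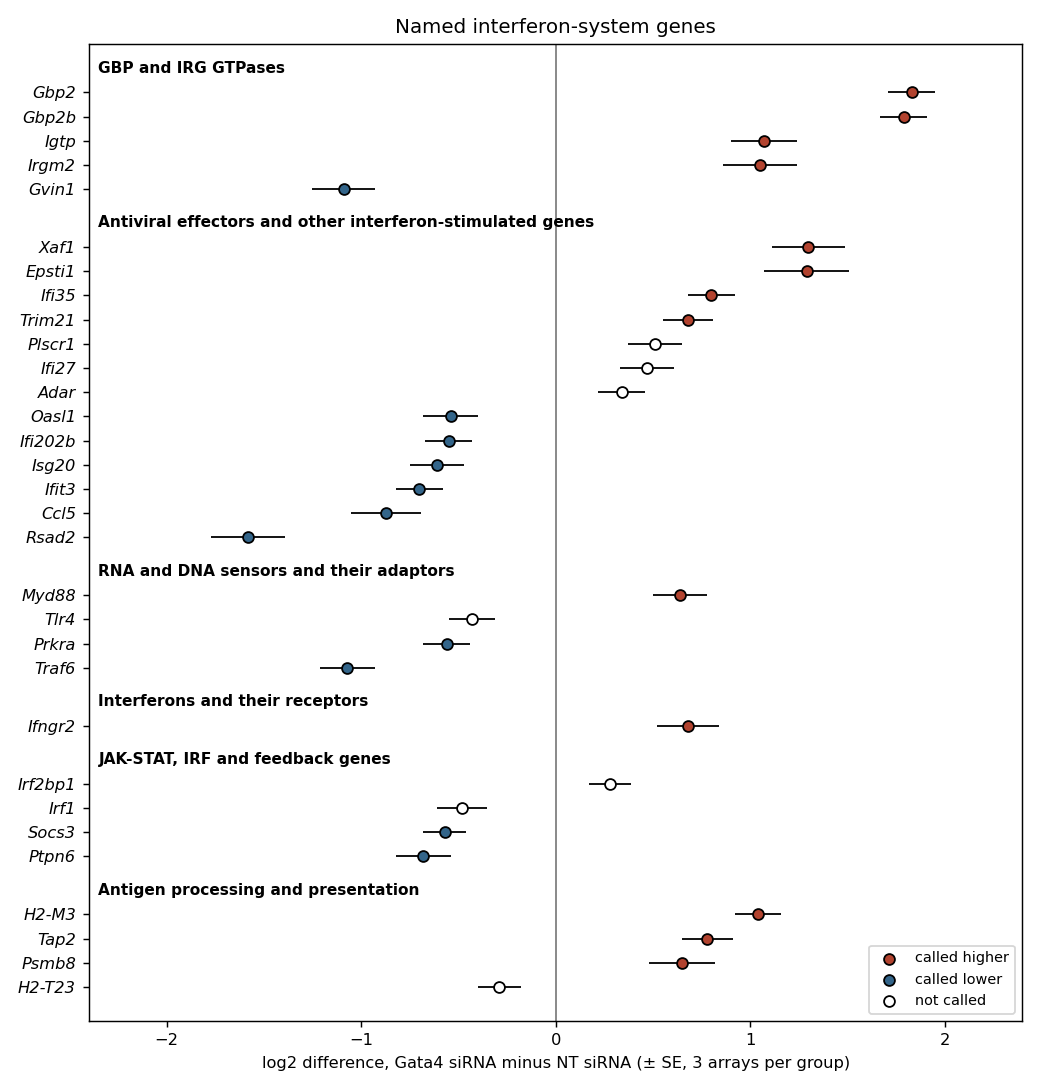
Log2 difference (Gata4 siRNA minus NT siRNA, ± SE from limma, 3 arrays per group) of the 31 named genes of the interferon lists by role, with the brightest probe of each gene. Red points passed the threshold as higher (13 genes), blue points as lower (11 genes) and open points did not pass (7 genes), and 3 of the 6 lists hold both red and blue points.

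**Figure D4:**
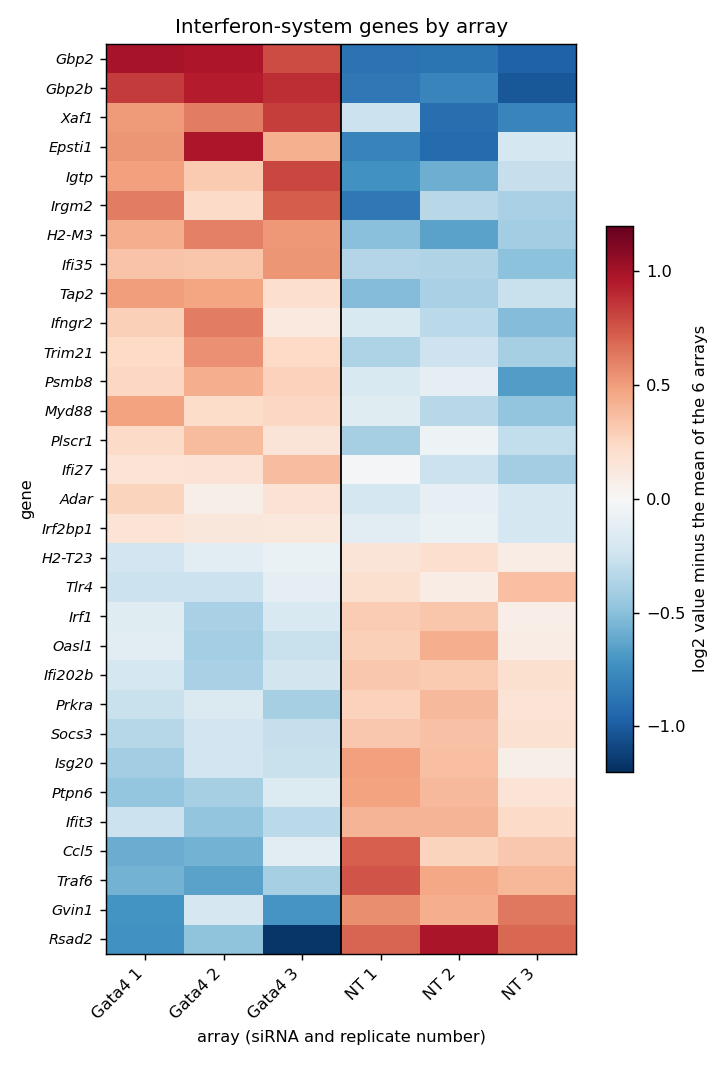
Log2 value of the 31 named interferon-list genes on each array, less the mean of the 6 arrays, ordered by the difference between the groups. Red is above and blue below the mean of a gene, and the colour scale ends at 1.2 in either direction. Rsad2 is lowest on Gata4 siRNA array 3 (-1.17), and Xaf1 on NT siRNA array 1 (-0.26) is the NT value nearest 0 among the 5 genes chosen.

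Promoter sequences were held for 26 of the 31 genes. The ISRE core was found in 6 of the 12 with a promoter that were higher (Gbp2, Gbp2b, Igtp, Irgm2, Myd88 and Trim21), in 2 of the 9 that were lower (Ifit3 and Rsad2) and in 1 of the 5 that did not pass. The GAS core was found in 6, 3 and 4 genes of the same groups, and GATAA in 2, 2 and 0. These are counts of letter matches in genes listed for their interferon response, and no test was made on them. A gene counts here with a match in any promoter held for it. The shares of 3.44% for the ISRE core, 8.30% for the GAS core and 25.4% for GATAA are per promoter.

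Among 1844 other named genes, with clone and predicted symbols left out, those whose 6 array values tracked each gene most closely were picked by Pearson's r of the log2 values. With 6 arrays in 2 groups, r is set mainly by the group difference, and all 14 genes picked had an r of at least 0.9905. Gbp2 was closest to Il33 (0.9997), Setd7 (0.9993) and Prickle1 (0.9991), and Gbp2b to Setd7 (0.9975), Cxcl1 (0.9970) and Tcf19 (0.9968). Il33 encodes an alarmin cytokine and Cxcl1 a neutrophil chemokine. The Il33 probe read 2175.2, 2158.4 and 2119.9 in Gata4 siRNA cells against 1634.2, 1638.5 and 1621.9 in NT siRNA cells, a log2 difference of 0.40 ± 0.11 that did not pass (limma adjusted p = 0.0567). Xaf1 was closest to Fmnl3 (0.9930), Rbm25 (0.9915) and Npc1 (0.9914), and Ifi35 to Ipo13 (0.9981), Dgcr8 (0.9959) and Nupl2 (0.9955). Rsad2 was closest to Ccdc61 (0.9942), Prkra (0.9906) and Gtdc1 (0.9905). Like Il33, the genes Fmnl3, Rbm25 and Ccdc61 did not pass (limma adjusted p = 0.109, 0.0614 and 0.0684).

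The deposited intensities share 1 distribution, with medians of 6.7 to 6.8 and 17705 to 17737 of 45269 probes above the noise floor on each array. Pearson's r across probes was 0.9872 to 0.9932 within groups and 0.9779 to 0.9869 between them. Gata4 had no named probe, so the knockdown was not checked. Of 20 Sertoli markers 2 were named, Sox9 at 0.59 ± 0.11 and Inhbb at -0.53 ± 0.12, and the others were not analysed here. Of 15 leukocyte and macrophage markers, Cd14 alone was named. Its probe read 748.4 ± 33.0 units in Gata4 siRNA cells against 568.0 ± 49.5 in NT siRNA cells (SD, n = 3 each). Cd14 did not pass (limma adjusted p = 0.0804). Of the peritubular myoid markers Tagln rose by 0.93 ± 0.15. Acta2 passed on its brightest probe, at 0.53 ± 0.12, and not on the other 3, at 0.45, 0.53 and 0.34. No endothelial, germ cell or Leydig marker was named. The part of other cell types in the differences was not tested.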

How the data were processed

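Total RNA of 6 TM4 samples was biotin-labelled and hybridized to Illumina arrays, per the labels' protocols, and groups follow the sample titles. The deposited intensities are on a linear scale, and 37.1% lie below 0, so they are background-subtracted. Their sorted columns nearly coincide, which shows a common distribution. Per the submitters' processing notes GenomeStudio was used, at settings that the sources used here do not give. Another 18 per-array columns fit no sample label and stayed out of every step.

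The intensities were passed through normexp (background mean 0, background SD 9.40 as estimated from the values below 0), an offset of 16 was added, and log2 was taken. The noise floor of 17.1 units is the size that 95% of the values below 0 do not exceed, and probes over it on 3 or more of the 6 arrays were tested two-sided in limma 3.58.1 (lmFit, eBayes; R 4.3.3). P-values were adjusted by Benjamini-Hochberg over all 17740 probes, and the threshold was 0.05. SEs are those of this fit. Figures were drawn with matplotlib 3.10.9.

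Names came from the symbols and Entrez numbers of the authors' deposited table of 2415 probes, updated through RefSeq genes (GRCm38.p6). Of these probes 1809 had a current symbol, 470 took a newer one, 127 stayed as deposited and 9 were dropped because their symbol and Entrez number named different genes. Other probes are unnamed here. The brightest probe by its mean over the 6 arrays stands for a gene. The named genes are the 5 chosen, every named gene of the 6 interferon lists as analysed (1 gene was taken out of them and is not reported here), the 3 genes most like each of the 5, Gata4 and cell type markers. The genes and lists were chosen with earlier results of these data known. Alternatives concerned the handling of dim values, filtering, variance moderation, array weights, scaling, a replicate block, the probe rule and each array left out.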

Additional observations from a re-analysis of the deposited data

How the results depend on the processing

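The log2 differences of Gbp2, Xaf1 and Ifi35 kept their sign and their call in 18 of 18 alternatives, and those of Gbp2b and Rsad2 in 17 of 17, since these 2 genes are not tested when all 6 arrays must exceed the noise floor. The kept calls are no independent support, because the 5 genes were chosen from calls on the same arrays that every alternative reuses. The count of changed probes, 1558 as reported, was 3079 with array weights, 2377 with an intensity trend, 736 with the replicate block and 734 with values floored at 1, and 257 to 1602 with 1 array left out. Of the named interferon-list genes 13 were called higher and 11 lower as reported. With values floored at 1 these were 8 and 5. With 1 array left out they were 5 to 11 higher and 3 to 12 lower. The replicate block gave 10 higher and 5 lower. Deviations from the group means of same-numbered arrays correlated at -0.055, -0.088 and -0.011, and no array correlated best with its own number. The values thus showed no pairing by number, but 3 arrays per group cannot exclude it. The highest correlations joined arrays of different number. They were 0.215 for Gata4 siRNA array 1 with NT siRNA array 2, 0.151 for 2 with 3 and 0.147 for 3 with 1. The replicate block used equal numbers, and a pairing of different numbers was not tested. Averaging all named probes turned Adar to -0.16, against 0.34 for its brightest probe. Over the 26 other named genes, 19 were called as reported and kept the call in 247 of 340 recomputed differences, losing it in 93. The other 7 gained a call in 18 of 126 and 1 value reversed. The cause of these changes was not tested. Probes at the edge of detection, as for Gbp2b in NT siRNA cells and Rsad2 in Gata4 siRNA cells, limit how well a fold can be set, and 3 arrays per group limit every SE.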
